A study of Bos taurus with 12 samples.

Results

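A set of 118 transcripts was detected in the cumulus cells of one body condition group and not in those of the other. Of these, 55 were found only in cows that lost body condition (L group) and are called L-only, and 63 were found only in cows that maintained or gained it (M/G group) and are called M/G-only. A transcript was taken when its rounded estimated count was over 3 in all 3 cumulus libraries of one group and at most 3 in all 3 of the other, and when its FPKM (estimated count scaled to the effective length of the transcript and the library total) was over 1 in at least 1 cumulus library. The 118 made up 0.498% of the 23699 transcripts that passed the FPKM filter, 0.232% for the L-only and 0.266% for the M/G-only transcripts, out of 38030 in the tables. Transcripts split the same way between the groups in oocytes were to be left out, and there were 0 of them. Because the cumulus counts chose the set, every cumulus value below is a description with no test, and the oocyte counts, which were not used beyond that exclusion, carry the comparisons.

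The animals were multiparous lactating Holstein cows of a commercial dairy, grouped by how their body condition score, a 5-point scale of fat cover, moved between calving and 27 to 33 d in milk. All cows were fed the same mixed ration and were synchronized after that window. Ovum pickup, which gave 1 cumulus-oocyte complex per cow, came weeks after the window in which condition was scored. The 12 libraries came from 9 cows, with 3 libraries per group for cumulus cells and 3 per group for single MII oocytes, and 3 cows gave both a cumulus and an oocyte library. The titles of all 12 libraries give one group and the condition entries the other. Titles were followed because they place each cow where the study's own listing of cows has it, and if the condition entries were right every L and M/G below would change places.

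Cumulus cells are the somatic cells that surround the oocyte. They pass metabolites and signals to it through gap junctions, respond to the ovulatory surge by making a hyaluronan-rich matrix, and stand between the oocyte and the lipids of follicular fluid. A gene is often transcribed into several isoforms, and the tables analysed here count each annotated isoform apart, so a transcript that is absent from a library does not mean that its gene is silent there. The tables name transcripts by Ensembl identifier, and the available gene table paired 0 of these with a gene. No gene name, pathway or cell type marker could therefore be attached to any of the 118, and the labelled cell types could not be checked against named markers.

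Total estimated counts ran from 6397420 to 10522900 in L and from 8822940 to 11879900 in M/G cumulus libraries, and from 8073220 to 31810300 in oocyte libraries. At these depths 3 counts, the detection limit, stood for 0.253 to 0.469 CPM (counts scaled to the library total) in cumulus cells and 0.0943 to 0.372 CPM in oocytes, a limit that covers counting error only. The number of filtered transcripts detected in a cumulus library ranged from 12098 in M/G replicate 1 to 18974 in M/G replicate 3, and L replicate 2 came next with 18169. The 10 highest transcripts took 54.3% of the counts in cumulus L replicate 3 and 29.1% in oocyte M/G replicate 1, compared with 10.1 to 20.8% in the other cumulus libraries and 2.63 to 2.91% in the other oocyte libraries. The part of these differences between libraries in the make-up of the set was not tested.

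The L-only transcripts were at a lower level in their own group than the M/G-only transcripts were in theirs. The mean FPKM of an L-only transcript in L cumulus cells had a median of 3.28 and ranged from 0.612 to 35.2, and 14 of 55 (25.5%) had a mean over 5. The mean FPKM of an M/G-only transcript in M/G cumulus cells had a median of 5.55 and ranged from 0.726 to 493, and 34 of 63 (54.0%) had a mean over 5. Over all 23699 filtered transcripts, the same measure, taken in the group with the higher mean, had a median of 5.09, and 50.4% were over 5. M/G-only transcripts were thus near the middle of the filtered transcriptome in level, and L-only transcripts were below it. Of the 118, 13 (11%) were over 20 FPKM, compared with 19.7% of all.

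Lengths were close to those of all filtered transcripts. The median length was 2121 nucleotides for L-only and 2008 for M/G-only transcripts, beside 2124 for all filtered transcripts. Lengths ran from 428 to 7491 among L-only and from 171 to 9341 among M/G-only transcripts. Transcripts under 500 nucleotides made up 3.64% of the L-only and 9.52% of the M/G-only set, beside 4.95% of all, and 8 of the 118 (6.78%) were over 5000 nucleotides, beside 8.00% of all. The M/G-only transcripts at the highest FPKM were among the shortest in the set. FPKM divides by the effective length, which was a mean of 11.7 nucleotides in the M/G cumulus libraries for a transcript of 183 nucleotides. Counts of 119, 76 and 8 thus gave 859, 544 and 76.7 FPKM there.

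**Figure D1:**
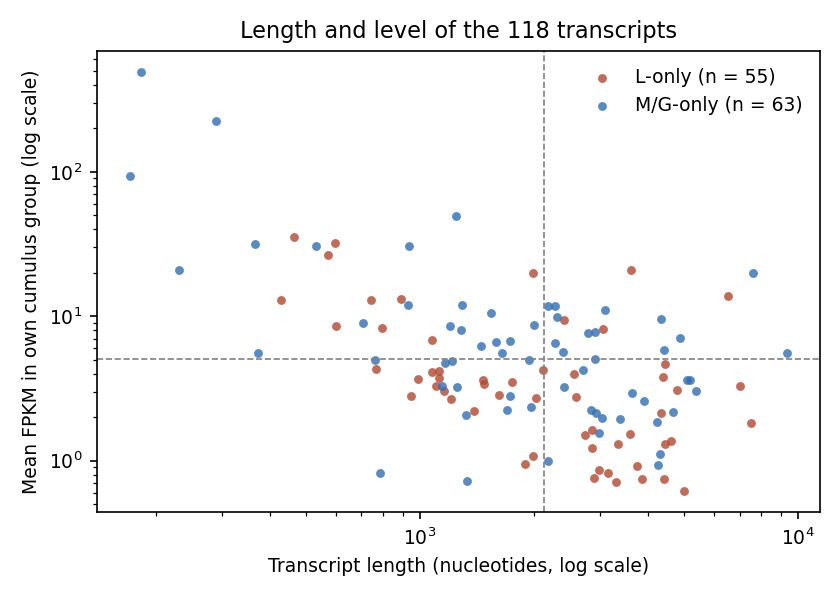
Length in nucleotides against mean FPKM in the cumulus group that holds the transcript (both axes on log scales), with 1 point for each of 55 L-only (red) and 63 M/G-only (blue) transcripts. Dashed lines mark the medians over all filtered transcripts, 2124 nucleotides and 5.09 FPKM, and the highest values belong to M/G-only transcripts under 500 nucleotides.

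Within the group that held it, a transcript varied widely between libraries. The highest FPKM was a median of 4.37 times the lowest among the 3 L libraries for L-only transcripts and 7.62 times among the 3 M/G libraries for M/G-only transcripts, and the largest such ratio was 140. Over all filtered transcripts above the limit in all 3 libraries of the group, the median ratio was 3.43 in L (8942 transcripts) and 2.64 in M/G (8692). Of the 55 L-only transcripts, 36 (65.5%) were highest in L replicate 1 and 29 (52.7%) lowest in L replicate 2, beside 38.5% and 15.9% of all such transcripts. Of the 63 M/G-only transcripts, 37 (58.7%) were highest in M/G replicate 1 and 36 (57.1%) lowest in M/G replicate 3, beside 34.3% and 27.0%. L replicate 2 and M/G replicate 3 are the libraries in which the most transcripts were detected. These ratios and counts follow from values the selection used and were not tested. The set and all such transcripts were not matched for level. The lowest count in the holding group was between 4 and 10 for 50 of the 118 (42.4%) and 100 or more for 9 (7.63%).

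Many transcripts stood close to the limit that defined the set. Among members, 13 L-only and 11 M/G-only transcripts had a lowest count of 4 or 5 in their own group, and 21 and 18 had between 1 and 3 counts in a library of the other group. Just outside, 16 transcripts missed the L-only set and 28 missed the M/G-only set because 1 library of the holding group had 2 or 3 counts, and 17 and 13 missed it because 1 library of the other group had 4 or 5 counts. In 79 of the 118 (66.9%) the rounded count was 0 in all 3 libraries of the other group. Transcripts detected in exactly 3 of the 6 cumulus libraries, whichever these were, numbered 3469, and the 118 were 3.40% of them.

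Because the set was chosen on this contrast, tests of the cumulus counts add nothing to it and are given only to place it. EdgeR's quasi-likelihood test with Benjamini-Hochberg adjustment called 0 of 23699 transcripts between L and M/G cumulus cells (0%), with 362 (1.53%) at an unadjusted p-value under 0.05. DESeq2's Wald test called 185 (0.781%), of which 59 belonged to the set, 26 L-only and 33 M/G-only.

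The transcripts with the highest lowest-library FPKM in each direction show both kinds of behavior in oocytes. ENSBTAT00000078420.1, an L-only transcript of 597 nucleotides, had counts of 82, 80 and 107 in L cumulus replicates 1 to 3 and of 0 in each M/G cumulus library, so the holding libraries were close to each other. Its mean in L cumulus cells was 32.1 ± 5.35 FPKM (SD, n = 3), at least 32.0-fold above what 3 counts stand for in an M/G library. In oocytes its counts were 33, 102 and 0 in L replicates 1 to 3 and 58, 0 and 191 in M/G replicates 1 to 3. Each oocyte group therefore had libraries with and without it, and the groups overlapped. The normalized level was 2.16 ± 2.91 CPM (SD, n = 3) in L and 5.16 ± 4.62 CPM (SD, n = 3) in M/G oocytes (DESeq2 log2 fold change of −1.63, SE 2.68, and edgeR adjusted p = 1).

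ENSBTAT00000073171.1, an L-only transcript of 465 nucleotides, had counts of 25, 50 and 168 in L cumulus replicates 1 to 3 and of 0 in each M/G cumulus library. The mean in L cumulus cells was 35.2 ± 22.7 FPKM (SD, n = 3), at least 25.5-fold above 3 counts in an M/G library. In oocytes it was abundant in every library, at 2402, 1037 and 2271 counts in the L and 372, 724 and 2642 counts in the M/G oocytes. It was at 263 ± 40.1 FPKM (SD, n = 3) in L and 216 ± 126 FPKM (SD, n = 3) in M/G oocytes, a difference smaller than the SD of the M/G group (DESeq2 log2 fold change of 0.01, SE 0.78, and edgeR adjusted p = 1). A transcript not detected in M/G cumulus cells was thus present in all 3 M/G oocytes.

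ENSBTAT00000086013.1, an M/G-only transcript of 183 nucleotides, was counted 119, 76 and 8 times in M/G cumulus cells and 0, 0 and 3 times in L cumulus cells (replicates 1 to 3). Its FPKM was 859, 544 and 76.7 in the M/G libraries, values that rest on the short effective length, and its mean of 493 ± 394 (SD, n = 3) was the highest of the 118. In oocytes it had 26 counts in L replicate 2, 2 in M/G replicate 3 and 0 in the other libraries, so it was detected in a single oocyte, of the group whose cumulus cells lacked it. EdgeR's adjusted p was 1. ENSBTAT00000070828.1, an M/G-only transcript of 171 nucleotides, was counted 15, 9 and 5 times in M/G cumulus cells and 0, 1 and 0 times in L cumulus cells (replicates 1 to 3). Its oocyte counts were 203, 244 and 110 in L and 84, 276 and 461 in M/G replicates 1 to 3, present in every library with overlapping groups (DESeq2 log2 fold change of −1.01, SE 0.85, and edgeR adjusted p = 1).

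**Figure D2:**
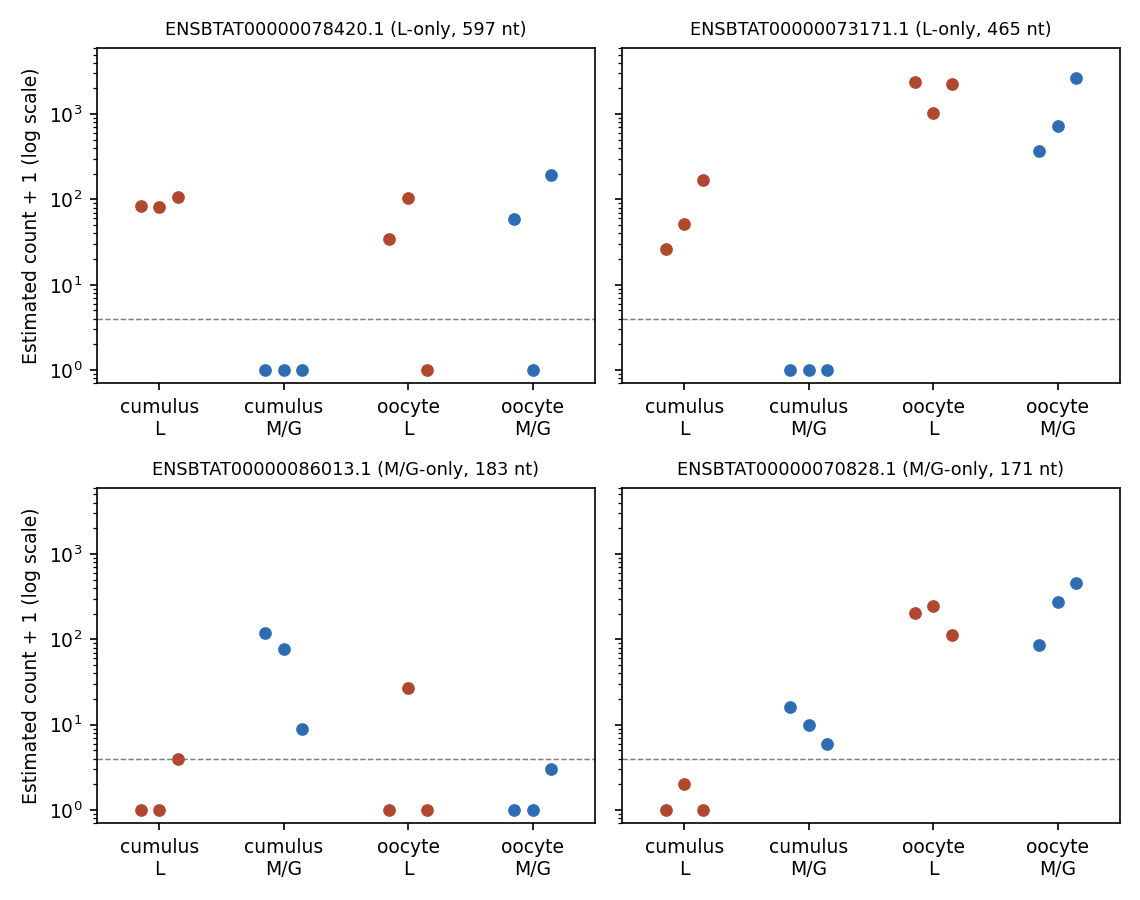
Estimated count plus 1 (log scale) of the 4 transcripts named by identifier, with 1 point per library, L in red and M/G in blue, for cumulus cells and oocytes, and a dashed line at the detection limit of 3 counts. In oocytes the points of both groups overlap in each panel, and ENSBTAT00000073171.1 and ENSBTAT00000070828.1 are present in all 6 oocytes.

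The central question was whether the 118 transcripts followed the condition group in oocytes as well. Most were detected in at least 1 library of each oocyte group, at a share near that of all filtered transcripts. In oocytes, 84 of the 118 (71.2%) were detected in at least 1 library of each group, 39 of 55 L-only (70.9%) and 45 of 63 M/G-only (71.4%), beside 75.1% of all filtered transcripts. When at least 2 libraries of each group were asked for, 48 of the 118 (40.7%) were left, beside 56.9% of all. A further 11 (9.32%) were detected in no oocyte, beside 11.9% of all. Of the L-only transcripts, 8 (14.5%) were found in L oocytes alone and 6 (10.9%) in M/G oocytes alone, and of the M/G-only transcripts 4 (6.35%) and 5 (7.94%), beside 6.24% and 6.76% of all. These shares were above those of all for L-only transcripts, in either direction, and near them for M/G-only transcripts. They rest on few transcripts, were not tested and were not matched for level. The median level over the 6 oocytes was 1.05 FPKM for L-only, 2.60 for M/G-only and 4.15 for all filtered transcripts. None of the 118 was over 3 counts in all 3 oocytes of one group and at most 3 in all 3 of the other, by construction of the set, but the exclusion had nothing to remove. Such a split was met by 186 of the 23686 transcripts that passed the FPKM filter in oocytes (0.785%), 112 in the L (0.473%) and 74 in the M/G direction (0.312%), and by 150 of the 23699 of the cumulus filter (0.633%).

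Detection per oocyte showed the same overlap. L-only transcripts were detected at 38, 29 and 29 of 55 in L oocyte replicates 1 to 3 and at 22, 28 and 35 of 55 in M/G oocyte replicates 1 to 3. M/G-only transcripts were detected at 38, 29 and 33 of 63 in L and at 27, 32 and 39 of 63 in M/G oocytes. For both sets the lowest number was in M/G replicate 1, the shallowest oocyte library. For L-only transcripts, 18 were detected in more L than M/G oocytes, 12 in more M/G than L oocytes, 23 in equal numbers and 2 in none. For M/G-only transcripts these numbers were 18, 13, 23 and 9. Both sets thus leaned toward L oocytes, as did all filtered transcripts (25.7% in more L and 16.9% in more M/G oocytes).

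**Figure D3:**
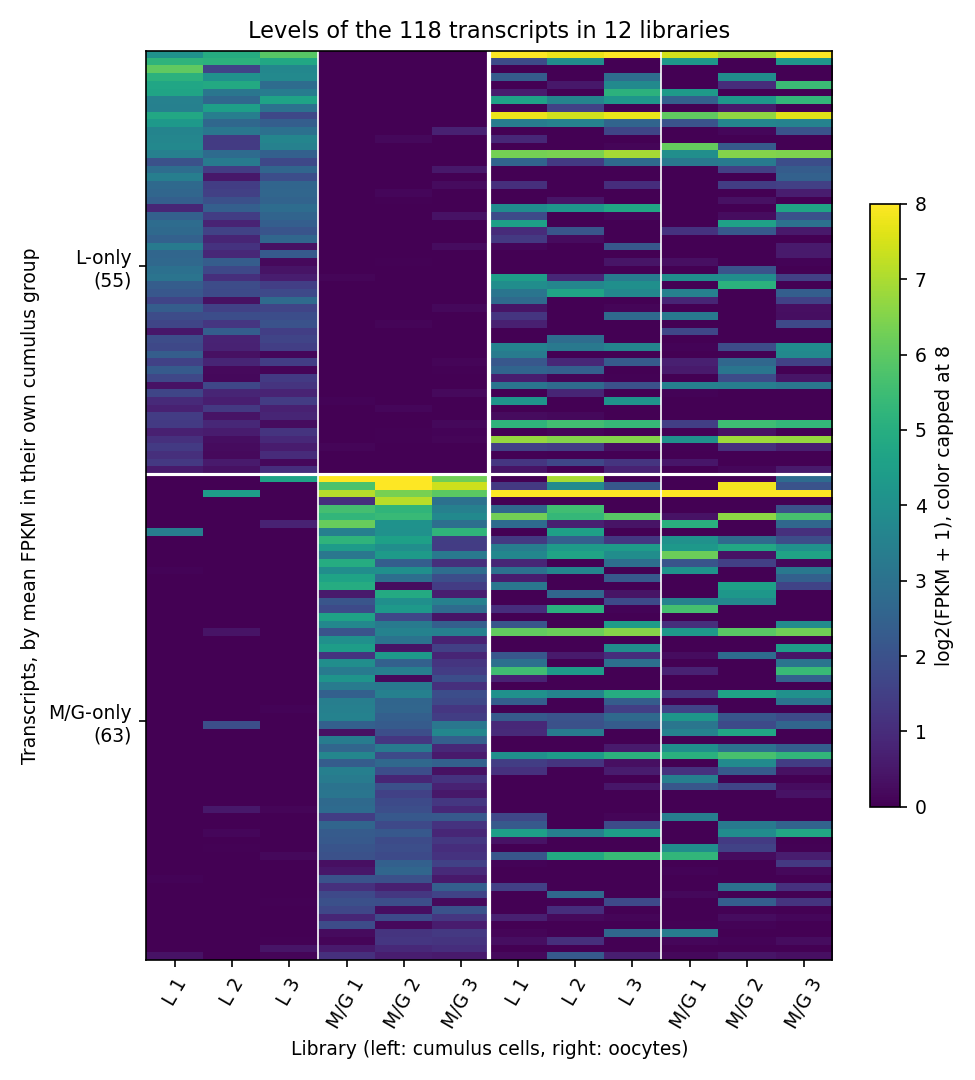
Log2(FPKM + 1) of the 118 transcripts (rows, ordered within each set by mean FPKM in the holding cumulus group) in 12 libraries (columns), with the color scale capped at 8. The near-empty blocks on the left are set by the selection, while on the right both sets appear in L and in M/G oocytes.

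Detection of the set in oocytes was patchy. Of the 118, 85 (72.0%) were detected in some but not all of the 6 oocyte libraries, 42 of 55 L-only (76.4%) and 43 of 63 M/G-only (68.3%), beside 54.1% of all filtered transcripts. Only 22 (18.6%) were detected in all 6 oocytes, beside 34.0% of all. Levels in oocytes differed too, with a median of 2.04 FPKM over the 6 oocytes for the 118 and 4.15 for all, so the shares were also taken within levels. Under 1 FPKM the share detected in some but not all oocytes was 25 of 27 (92.6%) for L-only transcripts. It was 12 of 21 (57.1%) for M/G-only transcripts, beside 59.6% of all of that level. Members detected in no oocyte, 2 L-only and 9 M/G-only, lie at this level and lower the share. Under 1 FPKM the share thus does not measure patchiness alone. Between 1 and 5 FPKM the share was 7 of 8 (87.5%) and 18 of 20, beside 83.6%. Over 5 FPKM it was 10 of 20 and 13 of 22 (59.1%), beside 36.1%. These shares describe the set and were not tested.

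**Figure D4:**
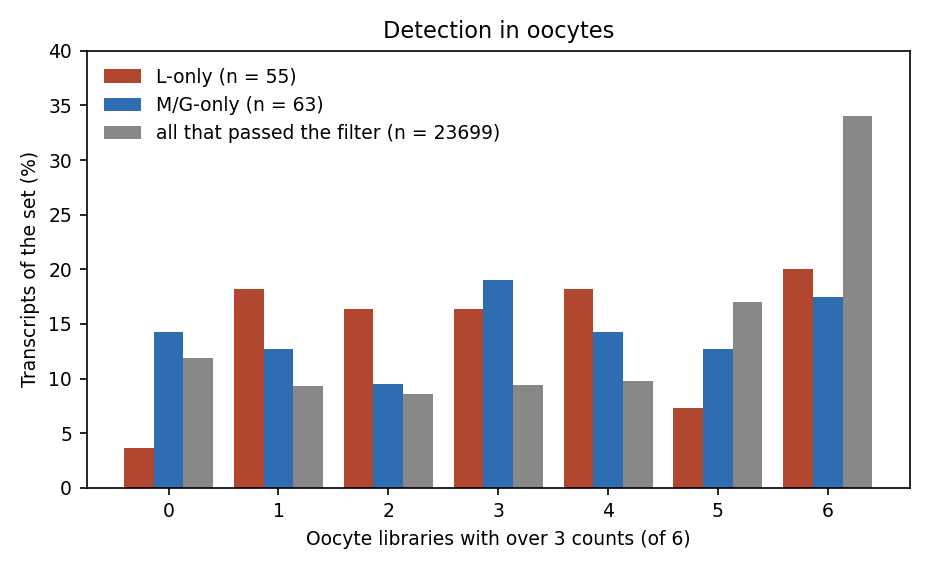
Percent of transcripts by the number of oocyte libraries, of 6, with over 3 counts, for 55 L-only, 63 M/G-only and all 23699 filtered transcripts. Detection in all 6 oocytes was 20.0% and 17.5% in the sets and 34.0% over all.

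Patchy detection was not limited to transcripts with few reads. An L-only transcript of 3624 nucleotides had 756, 352 and 476 counts in L cumulus replicates 1 to 3 and 0 in each M/G cumulus library, at least 209-fold above 3 counts. The same transcript had 437, 0 and 634 counts in L and 0, 1120 and 0 counts in M/G oocyte replicates 1 to 3. In each group it thus had a high count in some oocytes and a rounded count of 0 in others. An L-only transcript of 1989 nucleotides, with 322, 351 and 119 counts in L cumulus cells, had 0, 13 and 682 counts in L and 0, 43 and 2111 in M/G oocytes. An M/G-only transcript of 2181 nucleotides, with 328, 346 and 100 counts in M/G cumulus replicates 1 to 3, had 440, 408 and 0 counts in L and 258, 0 and 452 in M/G oocytes. Over the whole set, 56 of 118 (47.5%) had at most 3 counts in one oocyte library and 100 or more in another, beside 38.8% of all filtered transcripts.

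A smaller class was carried at high level by every oocyte, whichever group it came from. An L-only transcript of 740 nucleotides had 89, 33 and 15 counts in L cumulus replicates 1 to 3 and 0 in each M/G cumulus library, while its oocyte counts were 3725, 1656 and 3388 in L and 286, 1275 and 2977 in M/G. One of 1073 nucleotides had 54, 33 and 42 counts in L cumulus cells and between 102 and 3120 in the 6 oocytes. One of 2884 nucleotides had 19, 4 and 26 counts in L and 0, 1 and 2 in M/G cumulus cells, and between 339 and 8957 in oocytes. In 5 of the 118 (4.24%), 4 L-only and 1 M/G-only, the mean oocyte FPKM was at least 10 times that of the holding cumulus group, beside 5.76% of all filtered transcripts. The cell types differ in library kit and in how effective lengths were set, so FPKM is only roughly comparable between them.

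Transcripts typical of oocytes were also summed in the cumulus libraries. A list of 726 transcripts with over 20 FPKM in oocytes and at least 50 times less in cumulus cells, chosen after the values were seen, held 12.02 to 17.9% of TPM (a level per length, scaled to the library) in 5 oocyte libraries and 1.33% in oocyte M/G replicate 1. It held 0.0327, 0.0830 and 0.0122% in L and 0.0269, 0.0193 and 0.0810% in M/G cumulus replicates 1 to 3. The groups overlapped, and of the 726 listed transcripts 2 belonged to the 118. The list asks for low levels in these same cumulus libraries, so small cumulus shares follow from how it was made. The part of oocyte RNA in the cumulus values was not tested, and this list cannot measure it.

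M/G-only transcripts that were absent from all oocytes numbered 9 of 63 (14.3%), compared with 2 of 55 (3.64%) for L-only, beside 11.9% of all. One of 1248 nucleotides had 15, 1853 and 71 counts in M/G cumulus replicates 1 to 3 and 0 in every other library of the series. One of 2405 nucleotides had 150, 66 and 27 counts in M/G cumulus cells and 0 in the L cumulus cells. The L-only transcript of 570 nucleotides had 134, 4 and 47 counts in L cumulus cells and 0 in each M/G cumulus and oocyte library. At the other end, an M/G-only transcript of 9341 nucleotides had 1133, 471 and 129 counts in M/G cumulus cells, 0 in each L cumulus library, and between 507 and 1549 in all 6 oocytes.

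The cows that gave both libraries allowed the same animal to be followed from cumulus cells to oocyte. In the L cow, the oocyte held 29 of the 55 L-only transcripts (52.7%) present in its own cumulus cells and 29 of the 63 M/G-only transcripts (46.0%) absent from them. In one M/G cow (cumulus replicate 2, oocyte replicate 3), the oocyte held 39 of 63 M/G-only (61.9%) and 35 of 55 L-only transcripts (63.6%). In the other (cumulus replicate 3, oocyte replicate 1), these were 27 of 63 (42.9%) and 22 of 55. Over all filtered transcripts, the oocyte held 78.9, 80.3 and 57.8% of those detected in the cow's cumulus cells and 55.0, 55.1 and 25% of those that were not. Over all transcripts the oocyte thus held a larger share of those found in the cow's cumulus cells in each of the 3 cows, while within the set the shares were close and in 1 cow the order was reversed. With 3 cows this is a description, and the contrasts are unlike. Each of the 118 was detected in exactly 3 of the 6 cumulus libraries. The shares over all filtered transcripts were not matched in this way or in level.

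Between L and M/G oocytes, 92 of the 118 (42 L-only and 50 M/G-only) passed the oocyte FPKM filter and were tested with all 23686 such transcripts. EdgeR's quasi-likelihood test with Benjamini-Hochberg adjustment called 0 transcripts (0%), limma-voom called 0, and DESeq2 called 310 (1.31%). At an unadjusted p-value under 0.05 edgeR gave 516 of all (2.18%) and 3 of the 92 (3.26%). Of these, 1 L-only transcript was higher in M/G oocytes, 1 L-only transcript was higher in L oocytes and 1 M/G-only transcript was higher in M/G oocytes, each with an adjusted p of 1. With DESeq2, 5 of the 92 (5.43%) had an unadjusted p-value under 0.05, beside 5.41% of all, and 2 were called. One was an M/G-only transcript of 1971 nucleotides with 72, 64 and 19 counts in M/G cumulus cells, 0 in each L oocyte and 203, 82 and 2 in M/G oocyte replicates 1 to 3 (log2 fold change of −11.18, SE 2.77, DESeq2 adjusted p = 0.00542). The other was an L-only transcript of 4327 nucleotides with 75 counts in oocyte M/G replicate 1 and 0 in the other 5 oocytes, opposite to its direction in cumulus cells.

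The direction of the oocyte difference was then set beside the cumulus group. Of the 42 L-only transcripts tested, 20 (47.6%) were higher in L oocytes, beside 53.6% of all transcripts tested. Of the 50 M/G-only transcripts tested, 33 (66.0%) were higher in M/G oocytes, beside 46.4% of all. The median log2 difference, L minus M/G, was −0.09 for L-only and −0.88 for M/G-only transcripts, and 0.11 for all tested, and with groups at 0 in every library set to 3 counts these medians were −0.09, −0.88 and 0.11. With DESeq2, whose scaling lowered the median of all tested to −0.01, 20 L-only (47.6%, beside 49.7% of all higher in L) and 34 M/G-only transcripts (68.0%, beside 50.3% of all higher in M/G) were higher in the oocytes of their own cumulus group. The L-only share depended on single oocytes. It ran from 42.9% without L replicate 1, beside 49.6% of all, to 58.5% without M/G replicate 2, beside 58.9% of all, and it was above that of all without L replicate 2 (57.1%, beside 49.2%). The L-only median rose above that of all without L replicate 2 (0.16 beside −0.03), without L replicate 3 (0.13 beside 0.09), without M/G replicate 2 (0.45 beside 0.32) and without M/G replicate 3 (0.59 beside 0.36). The M/G-only share ran from 52.0% without M/G replicate 2, beside 41.1% of all, to 76.0% without L replicate 3, beside 46.9% of all, and was 54.0% with limma-voom, beside 46.0% of all. The M/G-only median ran from −1.35 without L replicate 3 to −0.31 without M/G replicate 1 and −0.21 without M/G replicate 2, and was −0.34 with limma-voom, so its size rested on single libraries.

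**Figure D5:**
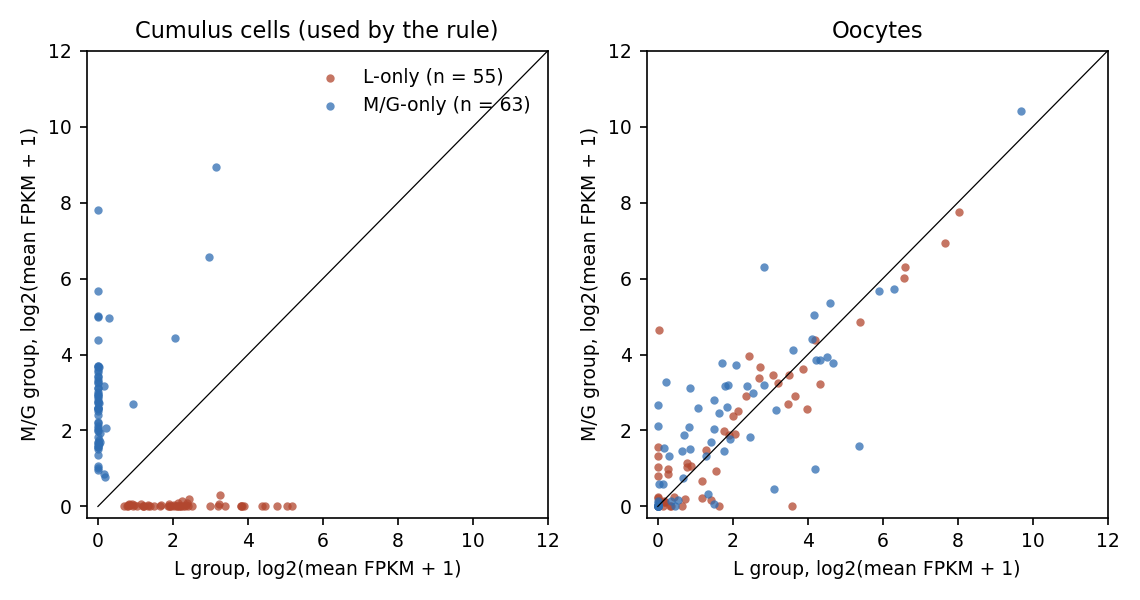
Log2(mean FPKM + 1) in the L (x axis) and M/G (y axis) group for cumulus cells, where the selection fixes the pattern, and for oocytes, with 1 point per transcript and the line of equal levels. In oocytes L-only (red) and M/G-only (blue) transcripts lie on both sides of the line.

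Summed over the set, the L-only transcripts held 241 to 451 FPKM in L and 0.197 to 2.44 in M/G cumulus libraries. In oocytes the same sum was 915, 734 and 946 in L and 442, 635 and 998 in M/G replicates 1 to 3, so the groups overlapped. The M/G-only sum was 517 to 1662 FPKM in M/G and 9.93 to 25.1 in L cumulus libraries. In oocytes it was 1005, 1960 and 795 in L and 1512, 1902 and 2150 in M/G replicates 1 to 3, again with overlap, and ENSBTAT00000070828.1 alone had 392 to 1749 FPKM there. On the TPM scale the L-only sum in oocytes ran from 935 to 1364 in L and from 230 to 1427 in M/G. The M/G-only TPM sum was 1496, 2496 and 1146 in L and 786, 2507 and 3073 in M/G oocyte replicates 1 to 3, so that M/G replicate 1 was the lowest of the 6 in TPM and not in FPKM.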

How the data were processed

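RNA from cumulus cells and single MII oocytes was sequenced by the authors, cell types with different library kits. Reads were trimmed with fastp and quantified with kallisto 0.44.0 against the Ensembl bovine cDNA set, and libraries with few exonic reads were dropped. The authors deposited 1 table per library with estimated counts (not normalized), TPM, length and effective length. Kallisto divides reads between transcripts of similar sequence, so a single transcript's estimated count can be 0 while a near-identical one takes the reads. In the cumulus tables, and not in the oocyte tables, some effective lengths exceed the annotated length, which lowers the FPKM of those transcripts.

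Estimated counts were rounded, and FPKM was computed from counts, effective lengths and library totals. Oocyte tests used edgeR 4.0.16 (quasi-likelihood, TMM, no covariate, R 4.3.3) on all transcripts with FPKM over 1 in at least 1 oocyte library, with adjusted p under 0.05 as a call. DESeq2 1.42.0 and limma 3.58.1 were alternatives. The tests were run on simulated counts with known changes first. Separate cows make the replicates. The smallest exact permutation p with 3 against 3 is 0.1. Fold bounds use 3 counts per library as FPKM. The transcripts named by identifier are the 2 per direction with the highest lowest-library FPKM in their own group, and others are given by length, several chosen after their values were seen. Members and lists were chosen with earlier results of these data known. Replicate numbers of the groups belong to different cows and mark no stated batch.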

Additional observations from a re-analysis of the deposited data

How the results depend on the processing

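Leaving out 1 cumulus library asks 5 libraries in place of 6 to meet the rule, so the set grows. Without L replicates 1, 2 and 3 there were 230, 150 and 228 L-only and 131, 310 and 140 M/G-only transcripts, and without M/G replicates 1, 2 and 3 there were 84, 96 and 576 L-only and 255, 222 and 154 M/G-only. With FPKM over 5 in at least 1 library, 30 L-only transcripts were left. A limit of 0 counts gave 56 and 75, of which 34 and 45 belonged to the 55 and 63, and a limit of 10 counts gave 49 and 66, of which 28 and 40 did. Thinning the cumulus libraries to the smallest total gave 65 and 55, of which 51 and 53 did. The members detected in oocytes of both groups, 84, numbered 48 (40.7%, beside 56.9% of all) when 2 libraries of each group were asked for, 54 (45.8%, beside 59.6% of all) without the oocytes of cows with a cumulus library, and 71 to 82 when 1 oocyte was left out. The 85 members detected in some but not all oocytes, a measure chosen after seeing the data, were 81 to 85 at other limits or depths and 75 (63.6%, beside 41.4% of all) without oocyte M/G replicate 1.

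DESeq2 called 310 transcripts in oocytes and every other setting 0. Members with an unadjusted p under 0.05, 3 with edgeR, were 5 with DESeq2, 8 with limma-voom (8.70%, beside 4.01% of all tested) and 5 without the FPKM filter (4.67%, beside 2.55%). When 1 oocyte was left out they were 2 (2.17%, beside 3.15%, without L replicate 2) to 6 (6.52%, beside 1.46%, without L replicate 3). With the replicate number as a block there were 0, beside 0.861% of all, and 0 transcripts were called. Deviations of same-numbered oocytes correlated at −0.25, −0.03 and 0.14, so the numbers did not pair the samples. Of the 92 tested, 53 were higher in the oocytes of their own cumulus group, and the alternatives gave between 47 of 90 (52.2%) and 60 of 92 (65.2%), or 64 of 107 (59.8%) without the FPKM filter. Size factors of DESeq2 moved the median log2 difference of all transcripts from 0.11 to −0.01. ENSBTAT00000073171.1 turned from a log2 difference of 0.20 to −0.12 without oocyte M/G replicate 2 (−0.12 to 0.65 when 1 oocyte was left out), and ENSBTAT00000086013.1 from 3.93 to −2.61 without oocyte L replicate 2 (−2.61 to 6.40). ENSBTAT00000078420.1 kept its sign but ran from −3.34 to −0.61 when 1 oocyte was left out, and ENSBTAT00000070828.1 from −1.44 to −0.47. The cause was not tested where none is given.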

Other observations

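Kallisto generally gives a whole number where no read of a transcript is divided with another. Among L-only transcripts, 91 of 165 estimates in L cumulus libraries (55.2%) were whole to within 0.001, beside 46.7% of all filtered transcripts detected in these libraries. By library the L-only share was 56.4, 36.4 and 72.7% beside 49.0, 38.3 and 56.1% in L replicates 1 to 3, so in replicate 2 it was below that of all. Among M/G-only transcripts, 48 of 189 in M/G cumulus libraries (25.4%) were whole, beside 44.9%. The M/G-only share was below that of all in each library, at 34.9, 30.2 and 11.1% beside 53.3, 51.7 and 34.8% in M/G replicates 1 to 3. All 3 estimates of the holding group were whole for 17 of 55 L-only (30.9%) and 7 of 63 M/G-only transcripts (11.1%), beside 37.3 and 35.1% of all filtered transcripts detected in all 3 libraries of the group. The part of read division in the make-up of the set was not tested. The first version of an Ensembl identifier, which is that of a transcript model not revised since it was added, was carried by 72 of the 118 (61.0%), beside 42.8% of all filtered transcripts.

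The same rule was applied to oocytes. Of the 186 transcripts present in all 3 oocytes of one group and absent from the other, 110 (59.1%) were detected in cumulus cells of both groups, beside 72.5% of all transcripts that passed the oocyte filter, and 31 (16.7%) in no cumulus library, beside 13.9%.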
